A study of Mus musculus with 15 samples.

Results

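Adenylyl cyclases are the enzymes that make cyclic AMP (cAMP) from ATP. The membrane-bound forms, encoded in the mouse by Adcy1 to Adcy9, are switched on by the stimulatory G protein alpha subunit and differ in what else they answer to. Adcy1, Adcy3 and Adcy8 are counted with the forms that calcium and calmodulin can stimulate, Adcy2, Adcy4 and Adcy7 with those that the G protein beta-gamma dimer enhances, and Adcy5 and Adcy6 with those that calcium and the inhibitory G protein alpha subunit hold down, while Adcy9 responds little to the plant compound forskolin. In the hippocampus the calcium-stimulated forms are known for linking neuronal calcium entry to cAMP, protein kinase A and the transcription factor CREB, a route long studied in memory. The genes were taken by symbol in a table of read counts per Ensembl gene: all 9 were found among 37310 genes, and all 9 were among the 18008 that passed the filter on low counts (more than 10 reads in more than 5 libraries).

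The table holds 15 libraries of poly(A)-selected RNA, each from both hippocampi of 1 C57BL/6J male mouse aged 2 months, sequenced as paired-end reads. Library numbers 3, 5, 6, 7 and 8 recur in each of the 3 conditions. CC mice (n = 5) were handled and never trained. FC mice (n = 5) were killed 30 min after contextual fear conditioning, in which a single foot shock of 1.5 mA for 2 s was given in a new chamber, and RT mice (n = 5) had the same training and were killed 30 min after a retrieval test of 5 min in the chamber 24 h later. CC mice were handled like the others but saw neither chamber nor shock, so context exposure and shock cannot be told apart in a comparison with CC.

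The libraries held 35731428 to 62555543 counted reads. FC3 and RT3 stood apart from the other 13: after upper-quartile (UQ) scaling, which sets the same upper quartile of counts in every library, the interquartile range of their log ratios to the median library was 0.828 and 0.436, against at most 0.117 in the others. Markers of dentate granule, CA1 and CA3 pyramidal cells were detected in every library, and none of them was called in any comparison described here. Of the markers of neighbouring tissue and other cells, 7 of 8 choroid plexus genes were higher in FC than in CC and 1 of 8 in RT, while 1 of 6 endothelial genes was lower in each, 1 of 6 striatal genes was lower in FC, and no marker of microglia, astrocytes, oligodendrocytes or thalamus and habenula was called in either. The libraries are of whole tissue, in which fewer cells of a type and less RNA per cell cannot be told apart.

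Adcy1, one of the calcium-stimulated forms, was the most abundant member, and Adcy7 and Adcy4 were the least. Levels between genes are given as RPKM, here UQ-scaled counts per kilobase of exon, set to the read depth of an average library. Over the 15 libraries Adcy1 averaged 72.6 ± 13.9 RPKM (SD, n = 15), with a lowest value of 35.2, a median of 74.8 and a highest value of 90.3. Adcy2 followed at 43.8 ± 1.52 and Adcy5 at 24.2 ± 1.94. A middle tier held Adcy9 at 12.3 ± 4.17, Adcy6 at 11.8 ± 1.39, Adcy3 at 7.41 ± 1.48 and Adcy8 at 4.92 ± 0.639 RPKM. Adcy4 (1.54 ± 0.216) and Adcy7 (1.10 ± 0.196) closed the order. The soluble cyclase Adcy10, which is not a membrane enzyme and no member, averaged 0.125 RPKM in CC.

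**Figure D1:**
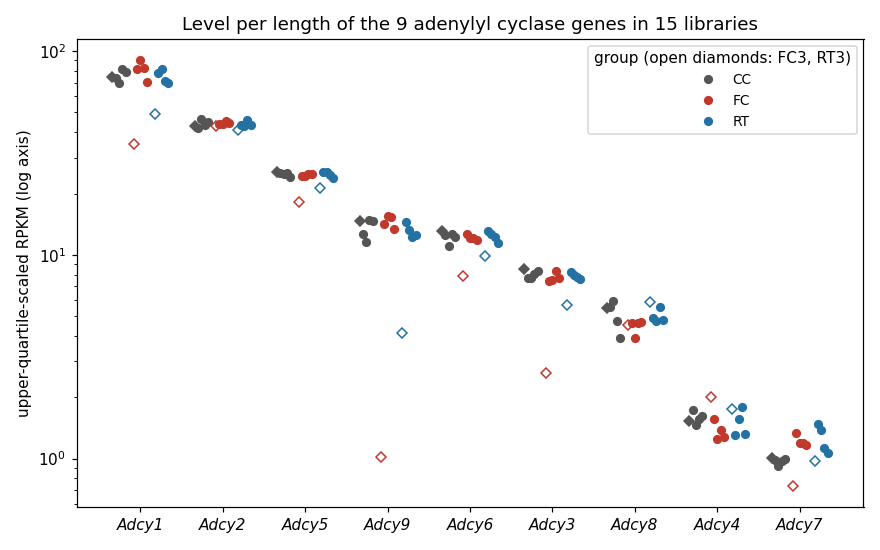
Level per length of each adenylyl cyclase gene (UQ-scaled RPKM, log axis) in the 15 libraries, ordered by mean. Points are libraries, coloured by group, with FC3 and RT3 as open diamonds. The order runs from Adcy1 (mean 72.6 RPKM) to Adcy7 (mean 1.10), and the FC3 point of Adcy9 lies at 1.01, far under the other Adcy9 points.

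Neighbours in this order were compared library by library, with an exact sign-flip permutation test of the log2 ratio (two-sided, n = 15, adjusted over the 8 neighbouring pairs). Of the 8 pairs, 7 differed. Adcy1 exceeded Adcy2 by 1.62-fold in the geometric mean (higher in 14 of 15 libraries, all but FC3; exact permutation, adjusted p = 0.000293). Adcy2 exceeded Adcy5 by 1.82-fold and Adcy8 exceeded Adcy4 by 3.20-fold, both in 15 of 15 libraries and with ranges that did not overlap (exact permutation, adjusted p = 0.000122 for each, from an unadjusted p of 6.104e-05, the smallest that the 32768 arrangements allow). Adcy4 exceeded Adcy7 by 1.41-fold, in 14 of 15 libraries (exact permutation, adjusted p = 0.000407). Adcy9 and Adcy6 did not differ beyond their spread: Adcy9 was the higher in 12 of 15 libraries, but the mean log2 ratio was -0.14 (exact permutation, adjusted p = 0.654). That pair rested on the libraries that stood apart, since without FC3 and RT3 Adcy9 was 1.12-fold above Adcy6 in 12 of 13 libraries (exact permutation, adjusted p = 0.000558).

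The calcium-stimulated forms together made up 47.7 ± 0.949% of the summed RPKM of the 9 genes in CC (SD, n = 5), nearly all of it from Adcy1 (40.6 ± 1.39%). The forms enhanced by beta-gamma made up 23.7% to 27.3%, of which Adcy2 gave 23.6 ± 1.38%, the calcium-inhibited pair 20.0 ± 0.629% and Adcy9 7.32 ± 0.623%. In FC3 the calcium-stimulated share was 36.7% and the Adcy9 share 0.880%, and in RT3 they were 43.5% and 2.98%. Leaving those libraries out, the calcium-stimulated share averaged 48.6% in FC (46.1% to 50.9%, n = 4) and 47.5% in RT (46.4% to 49.3%, n = 4), and these ranges overlapped with that of CC (46.4% to 49.0%).

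Each gene was then compared between the conditions with edgeR (negative binomial model, likelihood ratio test, Benjamini-Hochberg adjustment over all 18008 genes, called at an adjusted p of at most 0.01). The model carried 5 factors of unwanted variation estimated by RUVs. This method first reads patterns from differences between replicates of the same group, here over all tested genes. The study's set of negative control genes then gives the value of each factor in each library. At this setting 3 of 9 members were called between FC and CC, 1 higher and 2 lower, where 2.24% of all tested genes were called (1.32% higher and 0.922% lower). Between RT and CC 1 of 9 was called, a higher one, against 1.01% of all genes in either direction and 0.866% higher. Between FC and RT none of the 9 was called, against 0.122% of all genes. There 2 of them, Adcy3 and Adcy8, had an unadjusted p under 0.05 by the likelihood ratio test, as by edgeR's quasi-likelihood test and by DESeq2. DESeq2 also called 0, against 0.0222% of all genes. By the likelihood ratio test 5 of 9 had an unadjusted p under 0.05 in FC against CC and 1 of 9 in RT against CC. The share of all genes under that cut was not determined. With UQ scaling alone and no RUVs factors 0 of 9 were called in each comparison, where 0.189% of all genes were called in FC against CC (0.178% higher and 0.0111% lower), 0.106% in RT against CC and 0.0% in FC against RT. By the quasi-likelihood test with the RUVs factors 1 of 9 (Adcy8) was called in FC against CC, against 0.533% of all genes, and 0 of 9 in RT against CC (0.355%) and in FC against RT (0.0%). The median log2 fold change of the 9 members was -0.04 in FC against CC and -0.02 in RT against CC, beside -0.014 and -0.0012 over all tested genes. FC against CC and RT against CC share the CC libraries.

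**Figure D2:**
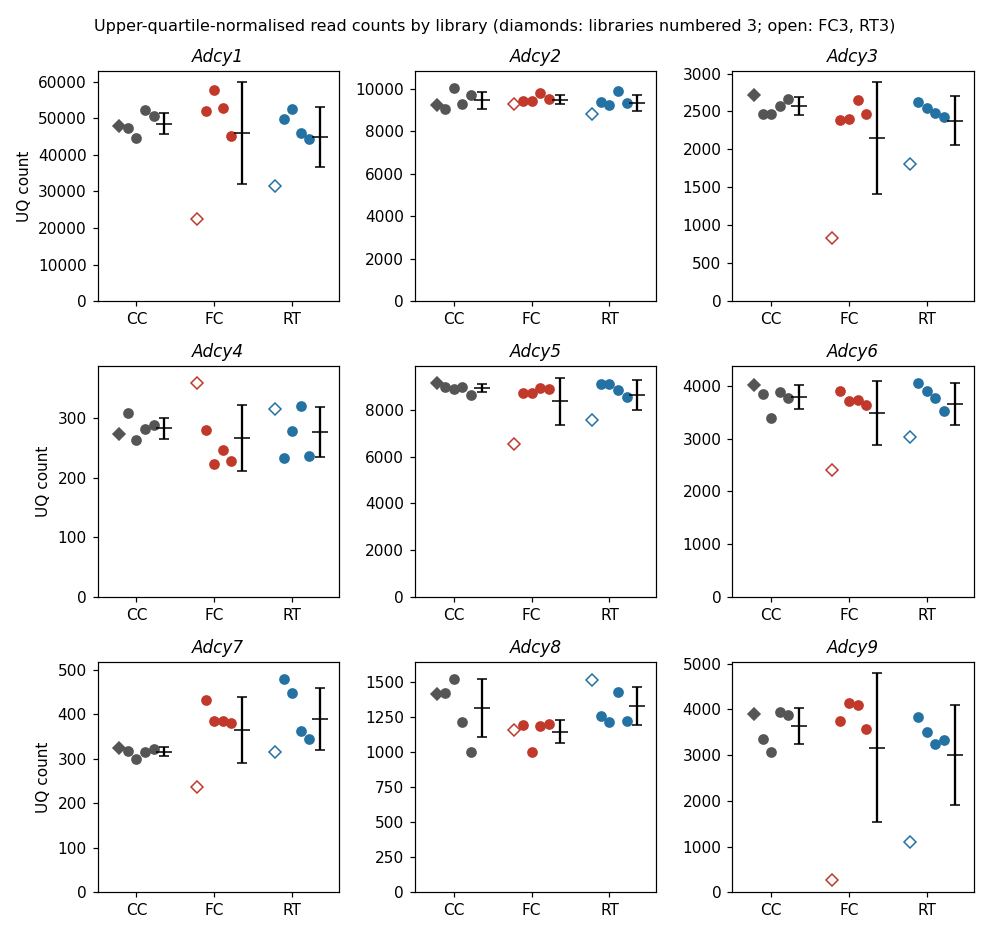
UQ-normalised read counts of the 9 genes by library, 1 panel per gene with its own axis from 0. Points are libraries (diamonds are those numbered 3, open in FC and RT), and the black bar to the right of each group is its mean ± SD. FC3 is far below the other FC libraries for Adcy9 (269.5 against at least 3577.9), Adcy3 and Adcy1, while Adcy7 in the other FC and RT libraries lies above every CC library.

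Adcy7, which is enhanced by beta-gamma and is known for its place in immune cells, was the member that rose, in FC and in RT alike. Its UQ counts in CC were 324.5, 318.3, 298.4, 314.6 and 321.8 in libraries 3, 5, 6, 7 and 8. In FC they were 237.1, 432.6, 384.8, 384.2 and 379.5 in the same order of numbers. In RT they were 314.1, 479.0, 446.9, 362.8 and 344.5. Every FC and RT library but FC3 and RT3 was above the highest CC library, and FC3 and RT3 were the lowest of their groups. With all libraries the groups therefore overlapped, and without FC3 and RT3 Adcy7 was the only member whose groups did not overlap in FC against CC (higher in 1.79% of all tested genes) or in RT against CC (1.34%).

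The fitted log2 fold change of Adcy7 was 0.31 in FC against CC (SE 0.0698, 95% interval 0.17 to 0.44; edgeR, adjusted p = 0.00101), or 1.24-fold. In RT against CC it was 0.38 (SE 0.0692, 95% interval 0.25 to 0.52; edgeR, adjusted p = 8.07e-06), or 1.31-fold. The difference between FC and RT was -0.08 with a 95% interval from -0.21 to 0.05 (edgeR, adjusted p = 0.739). With UQ scaling alone and no RUVs factors the same changes were 0.20 and 0.30 and were not called (edgeR, adjusted p = 0.966 and 1.00), and without FC3 and RT3 they were 0.32 and 0.37 (edgeR, adjusted p = 0.0401 and 0.01003). With the RUVs factors and without FC3 and RT3 they were 0.31 and 0.39, both called. The FC call was lost without FC5, the FC library with the highest UQ count of Adcy7: the change was then 0.26 (edgeR, adjusted p = 0.0275). That fit also called fewer of all genes, 1.39% against 2.24% with all libraries.

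As a share of the summed RPKM of the 9 genes within each library, which no scaling between libraries touches, Adcy7 took between 0.504% and 0.540% in CC libraries. It took between 0.594% and 0.699% in FC libraries and between 0.607% and 0.777% in RT libraries. On this scale FC3 (0.636%) and RT3 (0.695%) lay among the other libraries of their groups, and neither group overlapped with CC. The share also moves with the other members, above all with Adcy1, which was low in FC3 and RT3. The summed RPKM was 115.2 in FC3 and 139.6 in RT3, against 180.0 to 192.9 in CC libraries. Because the share is defined within the family, no share of all genes can be set beside this lack of overlap.

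Markers of microglia and of choroid plexus were read beside Adcy7. The summed UQ counts of the 5 microglial markers spanned 11629.2 to 12359.2 among CC libraries, 9971.1 to 12346.0 among FC libraries and 11594.8 to 11849.5 among RT libraries, with no marker at 0 in any library and none of the 5 called. The summed counts of the 8 choroid plexus markers reached 1748.2 to 2460.0 in CC. They lay between 3770.5 and 52262.3 in FC, with FC5 the highest, and between 2352.2 and 14587.7 in RT, with RT8 the highest. FC5 was the highest FC library both for these markers and for Adcy7, while among RT libraries RT8 was the highest for the markers and RT5 for Adcy7. The part of these markers in the Adcy7 result was not tested.

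Adcy7 lies on mouse chromosome 8 (mm9, chr8:90796302-90853861, plus strand), with 5 annotated transcripts that begin at 4 different positions, and counts per gene do not tell these starts apart. RefSeq promoter windows (table on GRCm38.p6) were given for 3 of those starts, and each of the 3 was found by exact match at 1 place in the mm9 genome, ending at the base before an annotated transcript start and sharing no base with an annotated Adcy7 exon. The 250 bases before the start are shown for the pair of windows in which a searched motif was found, because Adcy7 is the member that rose after training and after retrieval. Capitals mark a short CRE match (TGACG or its complement CGTCA, part of the site that CREB binds) in the first and an AP-1 site (TGANTCA, bound by Fos and Jun proteins) in the second.
Adcy7, chr8:90806641-90806890, plus strand: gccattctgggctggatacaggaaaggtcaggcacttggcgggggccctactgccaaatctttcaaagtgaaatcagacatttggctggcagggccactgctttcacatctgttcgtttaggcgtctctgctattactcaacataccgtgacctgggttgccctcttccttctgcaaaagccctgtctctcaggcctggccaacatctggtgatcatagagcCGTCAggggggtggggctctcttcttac
Adcy7, chr8:90812715-90812964, plus strand: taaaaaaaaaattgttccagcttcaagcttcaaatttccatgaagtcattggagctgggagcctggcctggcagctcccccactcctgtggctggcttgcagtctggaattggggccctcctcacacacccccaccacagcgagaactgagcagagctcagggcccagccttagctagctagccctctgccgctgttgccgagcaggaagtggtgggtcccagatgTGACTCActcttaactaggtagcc

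The short CRE match began 28 bases before its start and the AP-1 match 24 bases before. Such matches are common: searched on both strands in windows of 300 bases (250 before to 50 after the start), the short CRE letters were present in 20.8% of 32851 promoter windows and the AP-1 site in 7.81%. The full CRE (TGACGTCA, present in 1.79% of windows, and holding the short letters) and the EGR site (GCGTGGGCG, in 0.612%) were found in no window of a member. Of the members called lower, Adcy3 had 2 windows, 1 with an AP-1 match that begins 1 base before the start, and Adcy8 had none in the table. Adcy6, which was not called, had none either. Adcy9 had the short CRE letters 24 bases before its start. A match describes letters only.

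Adcy8 and Adcy3, both among the calcium-stimulated forms, were the members called lower in FC than in CC, and neither was called in RT. Adcy8 lies at chr15:64530604-64753858 on the minus strand and Adcy3 at chr12:4133103-4213525 on the plus strand (mm9). The UQ counts of Adcy8 in CC were 1414.0, 1426.3, 1524.3, 1217.3 and 1001.3 in libraries 3, 5, 6, 7 and 8. In FC they were 1159.2, 1192.4, 1001.0, 1186.7 and 1200.0, and in RT 1517.4, 1258.5, 1216.0, 1431.2 and 1226.4. The FC libraries lay below 4 of the 5 CC libraries and overlapped with CC8 alone, and they lay below every RT library, by a narrow margin (1200.0 in FC8 and 1216.0 in RT6). Adcy8 was the only member whose FC and RT counts did not overlap, a pattern seen in 0.172% of tested genes in that direction, or 2.07% without FC3 and RT3, where Adcy8 kept it.

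The fitted log2 fold change of Adcy8 was -0.20 in FC against CC (SE 0.0417, 95% interval -0.28 to -0.12; edgeR, adjusted p = 1.54e-04). It was -0.02 in RT against CC (95% interval -0.10 to 0.06; edgeR, adjusted p = 0.905). The difference between FC and RT, tested directly, was -0.18 (SE 0.0414, 95% interval -0.26 to -0.10) and just missed the threshold (edgeR, adjusted p = 0.0109). A block on library number left that at -0.18 (edgeR, adjusted p = 0.0103), and without FC3 and RT3 it was -0.14 (edgeR, adjusted p = 0.108). With UQ scaling alone the FC change was also -0.20 but its SE was 0.143 (edgeR, adjusted p = 0.966), and the call was lost without FC6 (-0.14, edgeR, adjusted p = 0.0293) and without FC7 (-0.22, edgeR, adjusted p = 0.0138). Without CC8, the low CC library, the change was -0.31 (edgeR, adjusted p = 2.54e-10). More of all genes were called in that fit too: 3.63%, with 1.88% lower, against 2.24% and 0.922% with all libraries. CC8 was also the CC library with the highest summed counts of CA3 markers (20643.2, against a CC median of 15839.5) and of dentate granule cell markers (16524.3, against 12593.6), and their part in its Adcy8 count was not tested.

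Adcy3, which is best known from cilia and olfactory neurons, had UQ counts of 2711.2, 2462.9, 2460.7, 2569.2 and 2658.6 in CC (libraries 3, 5, 6, 7 and 8). In FC they were 839.0, 2389.5, 2406.1, 2656.4 and 2462.5, and in RT 1811.7, 2624.9, 2544.0, 2484.6 and 2427.3. FC3 and RT3 were the lowest of all 15 libraries, and 2 of the other 4 FC libraries lay within the CC range. The fitted change in FC against CC was -0.15 (SE 0.0353, 95% interval -0.22 to -0.09; edgeR, adjusted p = 0.00101). It rested on FC3: without that library it was -0.10 (edgeR, adjusted p = 0.0490), and without FC3 and RT3 -0.06 (edgeR, adjusted p = 0.385). The call was also lost without FC6 (-0.14, edgeR, adjusted p = 0.0192) and without CC8 (-0.13, edgeR, adjusted p = 0.01002). On the annotation used, 1380 bases of Adcy3 exon (22.1%) overlap exons of Cenpo on the opposite strand, and the strand setting of the counting is not given in the sources used here, so reads of the 2 genes may not have been told apart there.

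**Figure D3:**
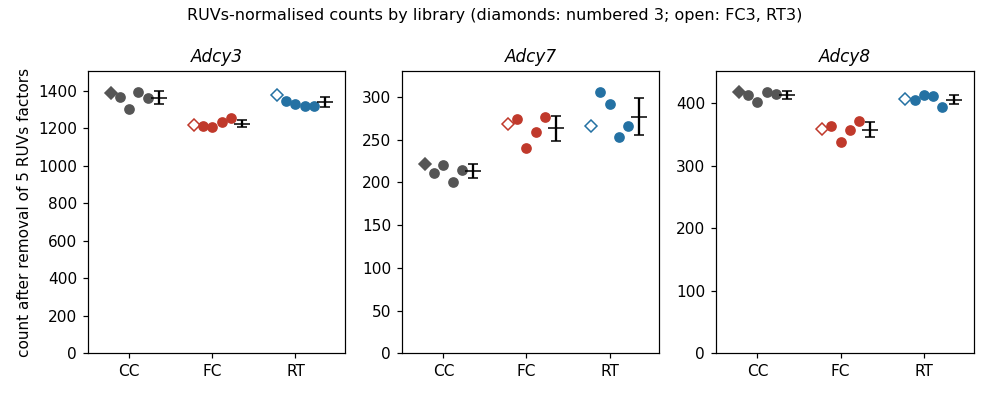
Counts of the 3 called members after removal of the 5 RUVs factors, by library, with axes from 0. The removal shifts the level of each gene, so the axes do not give abundance. Points are libraries (diamonds are those numbered 3, open in FC and RT) and the black bars are mean ± SD. Adcy3 in FC lies between 1207 and 1252 against 1303 to 1394 in CC, Adcy7 between 240 and 276 against 201 to 222, and Adcy8 between 338 and 371 against 401 to 418. Adcy5 and Adcy9, not called and not shown, also did not overlap between FC and CC on these counts.

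Once the RUVs factors were removed, the counts of the called members were tight within groups. The removal also shifts the level of a gene, so these counts are not abundances: Adcy8 averaged 1316.6 UQ counts in CC. Adcy8 fell from 412.6 ± 6.88 in CC to 357.6 ± 12.3 in FC and stood at 405.2 ± 7.60 in RT (SD, n = 5 each). Adcy7 went from 213.6 ± 8.32 in CC to 263.4 ± 14.7 in FC and 276.6 ± 21.7 in RT. Adcy3 averaged 1362 in CC (CV 2.64%), 1223 ± 18.3 in FC and 1338 ± 25.6 in RT. FC and CC also did not overlap for Adcy9 and Adcy5, which were not called, while the rest of the uncalled members overlapped. Adcy9 lay between 1990 and 2073 in FC against 2168 to 2238 in CC, and Adcy5 between 8963 and 9241 against 9243 to 9402. The share of all genes that separate on these counts was not determined. Because the factors are estimated from the spread between replicates, a small spread within groups is in part what the method produces, and these counts were not used in the test. The coefficient of variation of Adcy8 in CC was 15.8% on UQ counts and 1.67% after removal of the factors.

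**Figure D4:**
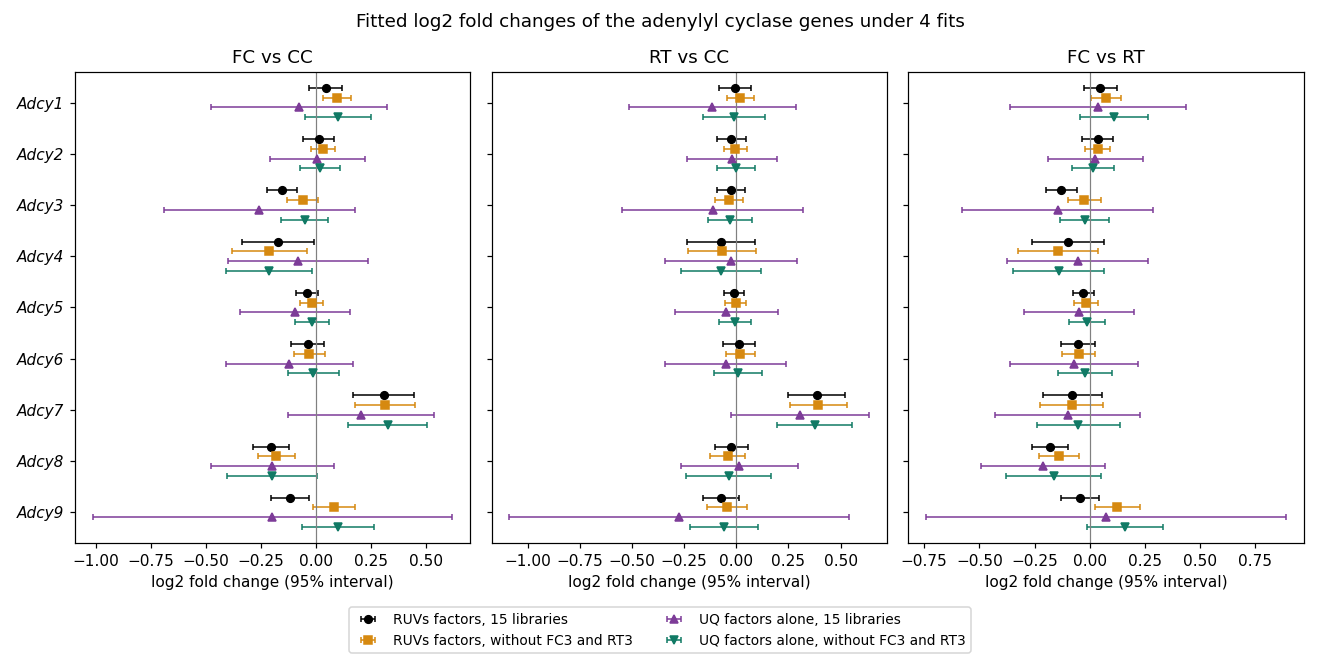
Fitted log2 fold changes of the 9 genes with 95% intervals in FC against CC, RT against CC and FC against RT. Colours mark the RUVs fit and the fit with UQ factors alone, each with all 15 libraries and without FC3 and RT3. The point of Adcy7 lies above 0 in every fit of the first and second panels (0.20 to 0.39). Its intervals cross 0 in both panels with UQ factors alone and 15 libraries (-0.13 to 0.53 and -0.03 to 0.63). Adcy9 in FC against CC changes side when FC3 and RT3 are left out (-0.12 to 0.08 in the RUVs fits).

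The other 6 members were not called in any comparison. Adcy1 (mm9, chr11:6963492-7078509, plus strand), the calcium-stimulated form much studied in hippocampal plasticity, changed by 0.04 in FC against CC (95% interval -0.03 to 0.12; edgeR, adjusted p = 0.653) and by -0.01 in RT against CC (95% interval -0.08 to 0.07). Its UQ counts ran from 44714.4 to 52299.7 in CC. They ran from 45053.0 to 57832.3 in 4 FC libraries, with FC3 at 22526.2, and from 44452.0 to 52479.2 in 4 RT libraries, with RT3 at 31485.5. The sign of its FC change turned with UQ scaling alone, to -0.08.

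Adcy2, enhanced by beta-gamma and the second most abundant member, was the steadiest over all libraries: its counts lay between 9062.9 and 10052.5 in CC, between 9271.9 and 9826.7 in FC, and between 8803.8 and 9896.7 in RT, FC3 and RT3 included. Its change was 0.01 in FC against CC (95% interval -0.06 to 0.08) and -0.02 in RT against CC (95% interval -0.09 to 0.05). Adcy5, best known from the striatum, had 8661.0 to 9144.4 counts in CC. It had 8730.1 to 8932.7 in 4 FC libraries and 6547.1 in FC3, with a change of -0.04 in FC (95% interval -0.09 to 0.01). Adcy6, widely expressed and closely related to Adcy5, changed by -0.04 in FC (95% interval -0.11 to 0.04) and 0.01 in RT (95% interval -0.06 to 0.09). 

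Adcy4, the third member enhanced by beta-gamma, was measured less closely. Its UQ counts were 272.4, 308.6, 262.4, 280.5 and 288.0 in CC. They were 357.7, 279.0, 222.9, 246.4 and 228.2 in FC and 315.0, 232.7, 278.5, 320.3 and 236.8 in RT. FC3 held the highest value of all 15 libraries, the opposite of its place for most other members. The change was -0.17 in FC against CC (SE 0.0834, 95% interval -0.34 to -0.01; edgeR, unadjusted p = 0.0372 and adjusted p = 0.263). The summed counts of the 6 endothelial markers were also highest in FC3 (12060.6, against an FC median of 6279.7). That was not particular to endothelium. Among FC libraries FC3 was also the highest for markers of CA1, CA3, dentate granule cells, striatum and oligodendrocytes. It was not the highest for those of astrocytes, microglia, choroid plexus or thalamus and habenula. The part of any of these in the Adcy4 counts was not tested.

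Adcy9 showed the widest range of the family, and the range came from libraries FC3 and RT3. It lies at chr16:4287529-4420498 on the minus strand (mm9). Its UQ counts were 3912.1, 3357.1, 3067.8, 3955.2 and 3881.6 in CC. They were 269.5, 3746.0, 4146.7, 4089.5 and 3577.9 in FC and 1104.3, 3844.1, 3514.7, 3248.6 and 3330.4 in RT. FC3 thus held 14.4-fold and RT3 3.15-fold less than the geometric mean of the other 4 libraries of their group. The raw count in FC3 was 266 reads, in a library of 52697748 counted reads, more than the median library's 52154887. Adcy9 is itself among the negative control genes from which the RUVs factors were estimated. Its change was -0.12 in FC against CC (95% interval -0.20 to -0.03; edgeR, adjusted p = 0.108), stayed at -0.12 when it was taken out of the controls, and turned to 0.08 without FC3 and RT3 (edgeR, adjusted p = 0.399). Taken out of the controls, Adcy9 still entered the differences between replicates, as every tested gene did.

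**Figure D5:**
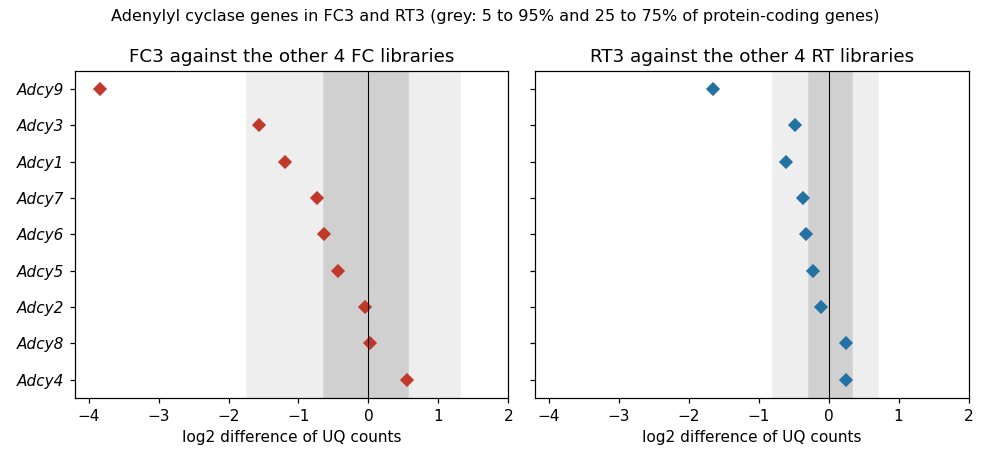
Log2 difference of the UQ count in FC3 (left) and RT3 (right) from the mean of the other 4 libraries of the group, for the 9 genes ordered by their FC3 value. Grey bands span the central 90% (light) and 50% (dark) of 13801 protein-coding genes. Adcy9 lies outside the light band in both (-3.84 and -1.65), and Adcy2 and Adcy8 lie within the dark band in both.

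The 9 members were spread over much of the distribution of all genes. Among 13801 protein-coding genes with a mean UQ count of at least 50, Adcy9 stood at percentile 0.514 of the FC3 difference and 0.754 of the RT3 difference. Adcy3 stood at percentiles 6.35 and 14.1, and Adcy1 at 10.6 and 8.88. Adcy2 was near the middle (percentiles 48.6 and 38.3), as was Adcy8 in FC3 (51.4), while Adcy4 was at 74.4 and 68.6. Across those genes the FC3 difference ran with transcript length (Spearman rho -0.635) and with GC content (0.460), as did the RT3 difference (-0.701 and 0.382). FC3 and RT3 ran together (0.927). These are descriptions over genes, which share the libraries. Within the family the longest protein-coding transcript of Adcy9 (4974 bases, 57.0% GC) was close in both to that of Adcy3 (4962 bases, 57.0% GC) and far shorter than that of Adcy1 (12259 bases, 52.6% GC). The part of length and GC content in the order of the 9 members was not tested.

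For each member the 2 other genes with the most similar pattern over the libraries were found by the root mean square difference of centred log2 UQ counts, with the 9 members left out of the search. Over 15 libraries the nearest to Adcy9 were Tbck (0.0896) and Chrna7 (0.0903, the alpha-7 nicotinic receptor subunit), against a median of 1.03 over all tested genes. Over the 13 libraries without FC3 and RT3 they were Fam59a (0.0435) and Tnrc18 (0.0436), against a median of 0.179. For Adcy7 the nearest over 15 libraries were Gm16861 (0.108) and Zfp646 (0.122), and over 13 libraries Sgk1 (0.0900, a kinase gene induced by glucocorticoids) and Gm16861 (0.0990), against medians of 0.341 and 0.235. For Adcy8 they were Gm9839 (0.0980) and Rasgef1b (0.102) over 15 libraries, and Arhgef15 (0.0594) and Cdh22 (0.0722) over 13. Adcy1 kept Fyco1 among its nearest in both sets (0.0496 and 0.0455), and Adcy4 kept 2610035D17Rik (0.0841 and 0.0705). The second genes of these pairs were Plxna2 (0.0543) and Ryr2 (0.0383) for Adcy1, and Etv4 (0.100) and Rpain (0.0900) for Adcy4. Adcy3 was nearest to Hmgxb3 (0.0572) and Kctd10 (0.0584) over 15 libraries and to Fam20b (0.0286) and Ywhag (0.0289) over 13, and Adcy6 to Abcc5 (0.0482) over 15 libraries and to Ptprf (0.0299) and Srgap2 (0.0359) over 13. Adcy2 was nearest to Csnk1d (0.0325) and Diap1 (0.0330), then Gsk3a (0.0184) and 5730403B10Rik (0.0231), and Adcy5 to Slc7a6 (0.0302) and Zfyve9 (0.0311), then Plekhb2 (0.0243) and Pdha1 (0.0255). Over 15 libraries Adcy2 itself varied by only 0.0482 around its mean, so that any steady gene lies near it. The same holds for Adcy5 over 13 libraries, where it varied by 0.0281.

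Of the rest of the cAMP pathway, 2 genes were called, a share near that of all genes. Of 74 genes for Gs-coupled receptors and their ligands, G protein alpha subunits, phosphodiesterases, protein kinase A, other cAMP effectors, anchoring proteins, CREB with its coactivators, and calmodulin, 0 were called higher and 2 lower in FC against CC (2.24% of all tested genes were called, 0.922% lower), and none was called in RT against CC or in FC against RT (edgeR likelihood ratio test). The median log2 fold change of the 74 was -0.03 in FC against CC and -0.02 in RT against CC.

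The genes called were Akap12, which encodes a scaffold that holds protein kinase A near receptors, and Hcn3, a channel of the family gated by cyclic nucleotides. Akap12 fell by 0.21 on the log2 scale in FC against CC (SE 0.0498; edgeR, adjusted p = 0.00182), from 1417.7 ± 176.3 UQ counts in CC to 1148.1 ± 212.2 in FC (SD, n = 5 each). Hcn3 fell by 0.18 (SE 0.0475; edgeR, adjusted p = 0.00836), from 860.2 ± 34.3 to 722.4 ± 143.3 UQ counts. Neither was called with UQ scaling alone, with or without FC3 and RT3. In RT against CC they changed by -0.06 and -0.01. Hcn4, a relative of Hcn3, had a change of -0.45 in FC (edgeR, adjusted p = 0.0597).

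Upstream of the cyclases, the gene nearest the threshold among receptors was Drd1, the dopamine receptor that couples to the stimulatory G protein, at -0.30 in FC against CC (edgeR, adjusted p = 0.0140), and Htr4, a serotonin receptor of the same coupling, had 0.26 in RT against CC (edgeR, adjusted p = 0.0228). Gnao1, an inhibitory alpha subunit, had -0.09 in FC (edgeR, adjusted p = 0.0172), and Gnas, the stimulatory one and itself a negative control gene, had 0.11 in RT (edgeR, adjusted p = 0.282). Downstream, the phosphodiesterases Pde3b and Pde10a, which break cAMP down, had -0.15 and -0.12 in FC (edgeR, adjusted p = 0.131 and 0.149). The regulatory subunits of protein kinase A with the smallest p were Prkar2b, at -0.13 in RT, and Prkar1b, at -0.07 in FC (edgeR, adjusted p = 0.128 and 0.162). Akap5, an anchor at synapses, had -0.09 in RT (edgeR, adjusted p = 0.146). Among transcription factors of the CREB group Crem had 0.15 and Atf1 0.12 in RT (edgeR, adjusted p = 0.201 and 0.464), and the calmodulin gene Calm3 had -0.03 in FC (edgeR, adjusted p = 0.616). None of these passed the threshold of 0.01.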

How the data were processed

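RNA of 15 libraries was measured, 5 each of CC, FC and RT. Reads had been aligned by GSNAP on mm9, and the authors deposited whole-number read counts per Ensembl gene made with HTSeq 0.6.1, not normalised. All per-sample columns were used (unused: 0). The 9 members and the pathway and marker lists were chosen with earlier results of these data known. Groups were taken from the sample labels.

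A gene was tested if its count exceeded 10 in at least 6 libraries (18008 of 37310). Counts were tested in R 4.3.3 with edgeR 4.0.16, as a negative binomial model with likelihood ratio tests, upper-quartile factors, common then tagwise dispersion and 5 RUVs factors from the study's negative control genes, computed with a reimplementation of RUVs. All 15 libraries entered 1 fit, and p-values were adjusted by Benjamini-Hochberg with a threshold of 0.01. Standard errors are the log2 fold change over the root of the likelihood ratio statistic, and 95% intervals use the normal quantile. The script was tested on simulated data. Levels and exact sign-flip tests were computed in Python 3.11.15 with pandas 2.3.3 and SciPy 1.17.1.

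Depth was 35731428 to 62555543 counted reads per library, and no libraries of a group agreed within sampling noise (chi-square per degree of freedom at least 6.28). Alternatives were UQ factors alone, TMM in place of UQ factors with the RUVs factors kept, other numbers of RUVs factors, other RUV methods and controls, other filters and thresholds, quasi-likelihood and DESeq2 1.42.0 tests, a replicate block, and leaving libraries out. UQ factors alone without FC3 and RT3 was added after the data were seen. The text names all 9 members. From each pathway list it names the genes past the threshold in FC or RT against CC, or otherwise the 2 with the smallest p, and for each member the 2 genes with the most similar pattern. Some genes chosen by this rule are not reported here. Library numbers were checked for pairing as the correlation of deviations from group means over 14991 genes: same-numbered pairs of FC with RT gave 0.378 to 0.909, each over the 0.1 set for pairing. Pairs with different numbers had a median of 0.2065 and reached 0.664, above some same-numbered pairs, and group means that include FC3 and RT3 enter all of these, so the pairing of FC with RT is a hint from the data only. Same-numbered pairs of CC with FC (-0.483 to 0.347) and of CC with RT (-0.519 to 0.101) did not all exceed 0.1. Library preparation put 3 libraries, 1 of each condition, in a lane, and the sources used here do not tie the numbers to lanes.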

Additional observations from a re-analysis of the deposited data

Results flagged for a closer look

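In 8 of 27 groups of 5 libraries (9 genes in 3 conditions), 1 library lay so far from the rest that its gap to the nearest exceeded Dixon's critical value of 0.71 times the range. Chance alone gives about 1 in 20 independent groups. The 27 groups come from the same 15 libraries and are not independent, so that rate cannot test their count. FC3 was the low library in 5 of the 8, with UQ counts of 839.0 for Adcy3, 6547.1 for Adcy5, 2411.7 for Adcy6, 237.1 for Adcy7 and 269.5 for Adcy9. RT3 was the low library for Adcy3 (1811.7) and Adcy9 (1104.3). The remaining case was Adcy8 in FC6 (1001.0), a library that did not stand apart over all genes (interquartile range of log ratios 0.117).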

How the results depend on the processing

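In FC against CC, where 3 members were called, 0 were called with UQ factors alone (0.189% of all genes called), with 1 RUVs factor (0.677%), and with UQ factors without FC3 and RT3 (0.616%). With 3 RUVs factors (0.977%), DESeq2 (0.967%), the quasi-likelihood test (0.533%) or no filter on low counts (0.942%), 1 was called. Fewer of all genes were called in each of these settings than the 2.24% with 5 RUVs factors. In RT against CC, where 1 was called, 0 were called with UQ factors alone, with or without FC3 and RT3, and by the quasi-likelihood test (Adcy7, adjusted p = 0.0149). Of all genes, 0.106% were called there with UQ factors alone, 0.37% without FC3 and RT3 and 0.355% by the quasi-likelihood test. In FC against RT, where 0 were called, 1 (Adcy8) was called with 10 RUVs factors and at a threshold of 0.05. With 10 factors 0.622% of all genes were called, against 0.122% with 5, and that fit left 2 residual degrees of freedom. The share of all genes called at 0.05 was not determined. Leaving out each library in turn gave 1 to 3 called in FC against CC, 1 to 1 in RT against CC and 0 to 1 in FC against RT. Of all genes, 1.39% to 3.63%, 0.808% to 1.54% and 0.0612% to 0.511% were called in those fits. The cause of these differences was not tested.

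The replicate block with UQ factors called 0 members in FC against CC (0.25% of all genes called) and 0 in RT against CC (0.15%). The replicate block with the RUVs factors kept 3, 1 and 0, the same members, and changed no call. It called 2.53%, 1.18% and 0.455% of all genes, more than the main fit in each comparison. That fit left 3 residual degrees of freedom, against 7 in the main fit. Over 31 alternatives Adcy7 was called in 24 (FC against CC) and 27 (RT against CC). In FC against CC Adcy8 was called in 22 and Adcy3 in 18. Each kept its direction in 31 of 31, but so did the uncalled Adcy4, Adcy5 and Adcy6 in FC against CC. In FC against RT Adcy8 was called in 10 of the 31, with the same direction in all 31. Adcy1 to Adcy7 kept theirs there in all 31 too. The alternatives refit the same libraries, so these counts are not independent of each other. Of 837 values of members under alternatives, 755 kept direction and side of the threshold, 33 lost and 10 gained a call, 39 changed sign without a call in either setting, and 0 reversed a call. The order of the levels was the same in all 4 settings tried, the main one included. TMM factors scale all genes of a library alike, so that setting could not change the ratios of neighbours within a library.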
